A study of Mus musculus with 45 samples.

Results

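Of 10 listed genes of glucose uptake and glycolysis, 9 were measured in the mouse heart by array probe sets annotated to a single gene: the transporters Slc2a1 and Slc2a4, the hexokinases Hk1 and Hk2, the phosphofructokinases Pfkm, Pfkp and Pfkl, the regulatory enzyme Pfkfb2 and the lactate dehydrogenase Ldha. Pfkfb1, the other listed gene, was not analysed here because no such probe set named it. They had 17 of the 22690 probe sets on the array, and each gene (12394 in all) was read by its brightest probe set. The 9 genes lay above the filter on dim genes and were among the 9295 genes tested. Whole hearts of male C57BL/6 mice gave 45 arrays. Mice of regular weight (RW) had standard chow, about 5 kcal% fat. Diet-induced obese mice (DIO) had a 60 kcal% fat diet that began at 6 weeks of age and ran for 9 weeks until exposure. Starting at 15 weeks of age both kinds of mice breathed filtered air as sham controls (SC), mainstream cigarette smoke (MS) or sidestream cigarette smoke (SS) through the nose, 5 h a day on 8 days over 2 weeks, and were killed the day after. RW mice contributed 8 air (RW-SC), 8 mainstream (RW-MS) and 7 sidestream (RW-SS) arrays, and DIO mice 8, 6 and 8 (DIO-SC, DIO-MS and DIO-SS). The labels call the arrays of a group biological replicates. The DIO groups differ from the RW groups in both diet and body weight, so that these cannot be told apart.

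Glucose enters a heart muscle cell through Slc2a1 (GLUT1), which resides mostly at the cell surface, and Slc2a4 (GLUT4), which insulin and contraction bring to the surface from stores inside the cell. Hexokinase traps the sugar as glucose 6-phosphate, phosphofructokinase commits it to glycolysis, and lactate dehydrogenase interconverts pyruvate and lactate. The adult heart draws most of its energy from fatty acids, and high use of either fuel holds back the other.

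Promoter sequences are shown for the genes whose changes recur below: Slc2a1 and Hk2, which were lower on the high-fat diet, and Hk1 and Pfkp, which were lower in smoke-exposed RW mice. RefSeq promoter windows were matched for 9 of the 10 listed names, Pfkfb1 among them, and none was matched for Slc2a4. Each sequence is the 250 bases before a transcription start, 5′ to 3′ on the gene's strand, and capitals mark the core of the hypoxia response element, searched as ACGTG or GCGTG on both strands (CACGT and CACGC when read on the gene's strand). This core overlaps the E-box CACGTG.
Slc2a1 (GRCm38.p6 chr4:119108495-119108744, plus strand): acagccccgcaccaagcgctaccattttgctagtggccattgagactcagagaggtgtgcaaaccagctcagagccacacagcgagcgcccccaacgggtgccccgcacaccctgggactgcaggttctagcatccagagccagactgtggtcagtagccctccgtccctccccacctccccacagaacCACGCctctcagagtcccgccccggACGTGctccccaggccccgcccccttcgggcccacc
Hk2 (GRCm38.p6 chr6:82774455-82774704, minus strand): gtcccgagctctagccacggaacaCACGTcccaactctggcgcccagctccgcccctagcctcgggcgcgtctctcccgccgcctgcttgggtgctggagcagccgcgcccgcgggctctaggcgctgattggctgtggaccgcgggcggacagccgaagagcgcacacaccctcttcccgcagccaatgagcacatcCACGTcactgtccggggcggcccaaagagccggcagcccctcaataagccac
Hk1, one of its 2 starts (GRCm38.p6 chr10:62340422-62340671, minus strand): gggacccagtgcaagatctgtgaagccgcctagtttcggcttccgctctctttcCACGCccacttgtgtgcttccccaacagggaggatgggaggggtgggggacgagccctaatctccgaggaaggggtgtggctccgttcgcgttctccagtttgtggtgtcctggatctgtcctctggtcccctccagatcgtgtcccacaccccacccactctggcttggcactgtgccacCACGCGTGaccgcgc
Pfkp (GRCm38.p6 chr13:6648772-6649021, minus strand): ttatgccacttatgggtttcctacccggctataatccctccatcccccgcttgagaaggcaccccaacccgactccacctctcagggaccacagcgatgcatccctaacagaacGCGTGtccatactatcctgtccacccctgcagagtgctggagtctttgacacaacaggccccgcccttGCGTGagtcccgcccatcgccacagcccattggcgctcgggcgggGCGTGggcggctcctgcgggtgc
The Slc2a1 window held 2 such cores, 61 and 36 bases before the start, and the Hk2 window held 2, at 226 and 52 bases. In the Hk1 window 3 cores lay 196, 15 and 12 bases before the start, the last pair overlapping, and the window of the other Hk1 start held 0. The Pfkp window had 3, at 136, 68 and 23 bases. A core was also present in 38.6% of all 32851 promoter windows cut to the same 250 bases, so that a match describes the sequence only. GGGCGG, the core that Sp1 family factors bind, was found on either strand in 2 places in the Slc2a1 window, 3 in the Hk2 window, 4 in the Pfkp window and 0 in this Hk1 window. It occurred in 32.7% of all windows.

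Median log2 intensity was 6.20 to 6.24 per array. Precision is set by the number of arrays. The 10 heart muscle markers checked, among them Myh6 and Tnnt2, were each above the filter, and their mean ranged from 13.72 to 13.84 over the 45 arrays. The atrial marker mean reached down to 6.07 in RW-MS (array 2), against 10.19 or more in each of the other groups, and it was low in RW-MS arrays 2, 6 and 8. White fat markers (3 genes tested) had group means of 7.74 in RW-SC and 6.36 in DIO-SC and ranged from 5.01 to 9.70 over arrays. Brown fat markers (3 tested: Ucp1, Cidea and Elovl3) had means of 7.65, 7.99 and 8.33 in RW-SC, RW-MS and RW-SS and of 6.91, 6.96 and 7.17 in the DIO groups. Red cell markers (3 tested) had means of 6.16, 6.58 and 6.82 in RW-SC, RW-MS and RW-SS and of 6.13, 6.33 and 6.24 in the DIO groups. Endothelial markers (9 tested) had their highest group mean in DIO-SS, 8.57, against 8.45 to 8.49 in the others, and fibroblast markers (7 tested) also had theirs in DIO-SS, 10.03. In RW-SS array 7 the 3′ probe set of Gapdh exceeded the 5′ one by 0.94, against 0.21 to 0.40 in the arrays of the groups other than RW-SS. DIO-MS array 1 was the lowest of its group for 8 of the 9 genes, and RW-MS array 7 for 6 of 9.

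The high-fat diet went with less Slc2a1, Slc2a4, Hk1 and Hk2 transcript in air, and smoke with more Slc2a1 in both diets and with less Hk1 and Pfkp in RW mice. DIO-SC hearts had 4 of the 9 genes lower than RW-SC hearts and 0 higher at a limma adjusted p below 0.05, where 20.3% of all genes passed (13.3% lower, 6.92% higher). After a further quantile normalization Pfkl also passed, giving 4 lower and 1 higher, beside 902 lower and 773 higher of 9295 genes. The arrays of these groups did not overlap for 4 of the 9 genes, a separation seen for 4.05% of all genes. DIO-MS had 3 of 9 lower than RW-MS and 0 higher, beside 10.6% of all genes (5.45% lower, 5.14% higher), with no overlap for 1 of 9 (2.38% of all genes). DIO-SS had 4 of 9 lower than RW-SS and 2 higher, beside 32.6% of all genes (12.9% lower, 19.7% higher), with no overlap for 3 of 9 (7.21%). After the quantile normalization Hk1 also passed, giving 5 lower and 2 higher, beside 1442 lower and 1142 higher of 9295 genes. Against air, mainstream smoke in RW mice went with 1 of 9 higher and 2 lower, beside 6.86% of all genes (2.86% higher, 4.00% lower), and 2 of 9 did not overlap (1.11%). In DIO mice it went with 1 of 9 higher and 0 lower, beside 4.55% of all genes (3.66% higher, 0.893% lower), and 0 of 9 were without overlap (1.99%). Sidestream smoke in RW mice went with 1 of 9 higher and 2 lower, beside 24.6% of all genes (11.7% higher, 13.0% lower), and 3 of 9 did not overlap (5.20%). In DIO mice it went with 1 of 9 higher and 1 lower, beside 31.8% of all genes (23.0% higher, 8.82% lower), and 0 of 9 were without overlap (7.17%). A further quantile normalization moved the split of all 9295 genes past the threshold to 363 higher and 336 lower for mainstream and 1378 higher and 888 lower for sidestream smoke in RW mice, with the same members past it. For sidestream smoke in DIO mice it was 1303 higher and 912 lower, with Pfkfb2 lost and Hk1 gained. The median change of the 9 genes was -0.05 log2 units for the diet in air and 0.01, -0.03, 0.00 and 0.04 for RW-MS, RW-SS, DIO-MS and DIO-SS against air, beside -0.02, 0.00, 0.00, 0.01 and 0.04 over all genes. The comparisons share arrays: the RW air arrays serve as control for both smokes in RW mice and for the diet in air, and the DIO air arrays for both smokes in DIO mice.

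**Figure D1:**
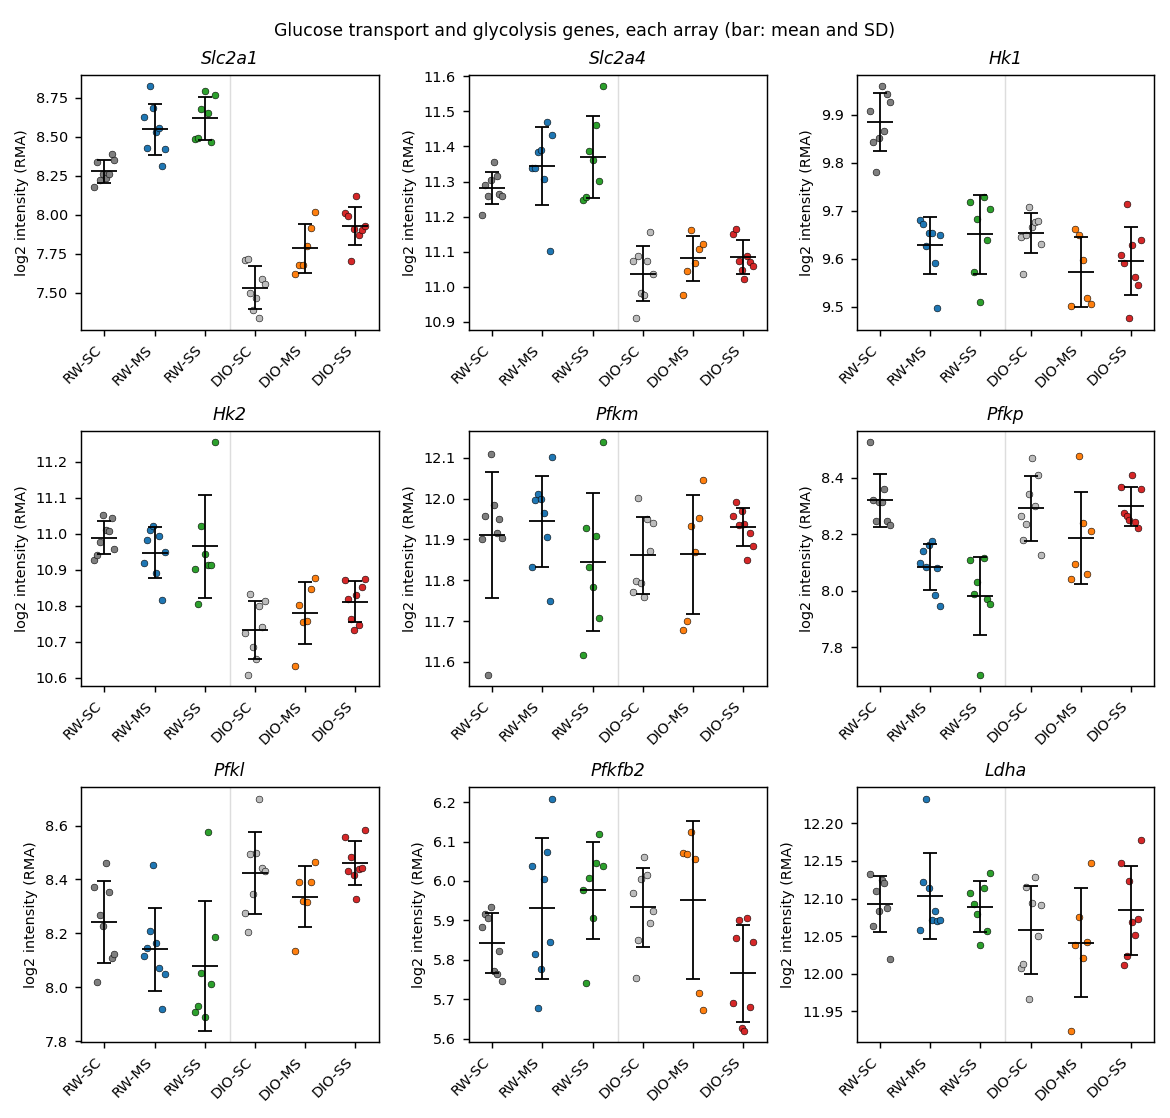
Each point is 1 array, on the log2 intensity scale of its probe set, by group for each of the 9 genes; the black bar gives the group mean and the whiskers 1 SD. Slc2a1 in the DIO groups, 8.12 or less, lies below Slc2a1 in the RW groups, 8.18 or more, while Hk1 is highest in RW-SC, from 9.78 to 9.96.

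Slc2a1, the basal glucose transporter, was lower on the high-fat diet in air and in both smokes, and higher with smoke on both diets. Its log2 intensity had a lowest, median and highest value of 8.18, 8.26 and 8.39 in the 8 RW-SC arrays and of 7.34, 7.53 and 7.72 in the 8 DIO-SC arrays. RW-MS arrays gave 8.32, 8.54 and 8.83 and RW-SS arrays 8.47, 8.65 and 8.80. In DIO-MS the values were 7.62, 7.74 and 8.02, and in DIO-SS 7.70, 7.92 and 8.12. Every DIO array therefore lay below every RW array, whatever was inhaled. The diet difference was -0.75 ± 0.07 log2 units in air (SE, 95% interval -0.88 to -0.61, 0.596 times the RW level, adjusted p = 3.20e-11). It was -0.76 ± 0.07 under mainstream smoke (adjusted p = 1.55e-10) and -0.69 ± 0.07 under sidestream smoke (adjusted p = 2.90e-10). By the exact permutation test of the difference in means, two-sided and unadjusted, the diet difference in air had p = 1.55e-04, the smallest that 8 arrays against 8 can give. Across these arrays fewer cells of a type and less RNA per cell cannot be told apart, here and in all results that follow. Brown fat markers also had lower group means in DIO mice, with median differences of -0.80 in air and -1.45 under sidestream smoke, with mainstream smoke between them (0, 1 and 0 of 3 past the threshold), and their part in the lower Slc2a1, Slc2a4 and Hk2 was not tested. With the white fat marker mean in the model the difference in air was -0.75, and with the endothelial mean -0.71.

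In RW mice Slc2a1 rose by 0.27 ± 0.07 log2 units with mainstream smoke (1.20 times the level in air, adjusted p = 0.00749) and by 0.34 ± 0.07 with sidestream smoke (1.27 times, adjusted p = 2.59e-04). All 8 RW-MS arrays lay above the RW-SC mean, with some overlap of the groups, and the 7 RW-SS arrays all lay above the highest RW-SC array. Among DIO mice it rose by 0.40 ± 0.07 with sidestream smoke (1.32 times, adjusted p = 2.05e-05) and by 0.25 ± 0.07 with mainstream smoke (1.19 times, adjusted p = 0.0318). The 8 DIO-SS and 6 DIO-MS arrays each lay above the DIO-SC mean. The mainstream result in DIO mice was near the threshold: it was lost when any one of DIO-SC 4, 5 or 6 or DIO-MS 4, 5 or 6 was left out (adjusted p 0.0502 to 0.121). In DIO-SS against DIO-SC 4 of 9 endothelial markers tested were also higher, beside 23.0% of all genes. In RW-SS against RW-SC 3 of 3 red cell markers were higher, beside 11.7% of all genes. The endothelial mean as a covariate, chosen after seeing the data, reduced the sidestream rise in DIO mice to 0.27 (adjusted p = 0.00221), and the red cell mean moved that in RW mice to 0.43 (adjusted p = 9.52e-04). The smoke effect did not differ past the threshold between the diets: the interaction, DIO effect minus RW effect, was -0.02 with a 95% interval of -0.21 to 0.18 for mainstream smoke and 0.06 with an interval of -0.14 to 0.25 for sidestream smoke (adjusted p = 0.970 and 0.678).

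Ranked by mean, Slc2a1 went from RW-SS (8.62) through RW-MS (8.55), RW-SC (8.28), DIO-SS (7.93) and DIO-MS (7.79) to DIO-SC (7.53). Only the step from RW-SS to RW-MS, 0.07, was below the residual SD of 0.13 log2 units. The other 2 Slc2a1 probe sets moved the same way. Probe set 1426599_a_at differed by -0.67 ± 0.07 for the diet in air (adjusted p = 3.99e-10 over 15295 probe sets) and 1426600_at by -0.46 ± 0.06 (adjusted p = 2.65e-07). Both rose with sidestream smoke in each diet (0.22 to 0.38 log2 units). With mainstream smoke 1426599_a_at rose in RW mice by 0.24 (adjusted p = 0.0222), and 1426600_at gave 0.16 (adjusted p = 0.110). In DIO mice they gave 0.18 (adjusted p = 0.158) and 0.16 (adjusted p = 0.184).

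Slc2a4, the insulin-responsive transporter, was lower on the high-fat diet in air and in both smokes. Its lowest, median and highest log2 intensities were 11.21, 11.28 and 11.36 in RW-SC, 11.10, 11.36 and 11.47 in RW-MS, and 11.25, 11.36 and 11.57 in RW-SS. The DIO arrays gave 10.91, 11.06 and 11.16 in SC, 10.98, 11.09 and 11.16 in MS, and 11.02, 11.07 and 11.16 in SS. DIO and RW arrays did not overlap in air or under sidestream smoke, and under mainstream smoke RW-MS array 7 alone reached into the DIO range. By mean the order was RW-SS, RW-MS, RW-SC, DIO-SS, DIO-MS and DIO-SC, and only the step from RW-SC to DIO-SS, 0.20, exceeded the residual SD of 0.08. The diet difference was -0.24 ± 0.04 log2 units in air (0.844 times, adjusted p = 4.41e-05), -0.26 ± 0.05 under mainstream smoke (adjusted p = 7.42e-05) and -0.29 ± 0.04 under sidestream smoke (adjusted p = 3.41e-06). No smoke comparison of this probe set passed the threshold: the differences were 0.06 and 0.09 in RW mice and 0.04 and 0.05 in DIO mice for mainstream and sidestream smoke, with 95% intervals from -0.05 to 0.17. The second probe set, 1415959_at, also was lower with the diet in air (-0.33 ± 0.05, adjusted p = 1.34e-06), and it rose with smoke in DIO mice, by 0.18 ± 0.05 (mainstream, adjusted p = 0.0275) and 0.22 ± 0.05 (sidestream, adjusted p = 4.44e-04). Its values in smoke-exposed RW mice were 0.06 (adjusted p = 0.468) and 0.10 (adjusted p = 0.0990). The probe sets thus disagree on whether Slc2a4 changed with smoke in DIO mice.

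**Figure D2:**
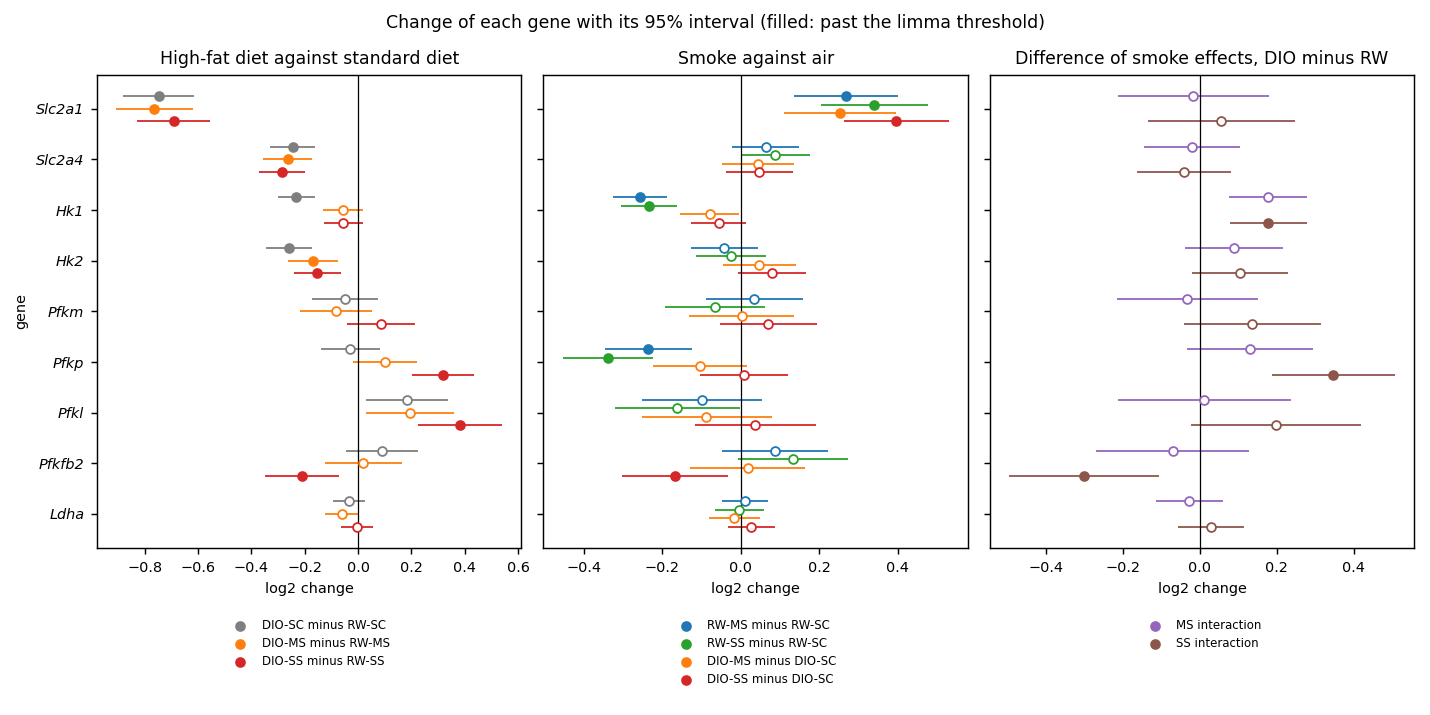
Log2 change of each of the 9 genes (horizontal axis) with its 95% interval, for the diet comparisons, smoke against air, and the difference of the smoke effects between diets; filled points passed the limma threshold after adjustment over 9295 genes. Slc2a1 stands at -0.69 to -0.76 for the diet and 0.25 to 0.40 for smoke, and Hk1 and Pfkp lie between -0.23 and -0.34 for both smokes in RW mice.

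Hk2, the hexokinase typical of insulin-sensitive muscle, was also lower in DIO mice. Its lowest, median and highest values were 10.93, 10.99 and 11.05 in RW-SC and 10.61, 10.73 and 10.83 in DIO-SC, with no overlap. RW-MS arrays gave 10.82, 10.97 and 11.02 and RW-SS arrays 10.81, 10.91 and 11.25, while DIO-MS arrays gave 10.63, 10.78 and 10.88 and DIO-SS arrays 10.73, 10.82 and 10.88. In the order of means the 3 RW groups came first, and only the step from RW-MS to DIO-SS, 0.14, exceeded the residual SD of 0.08. The diet difference was -0.26 ± 0.04 log2 units in air (0.836 times, adjusted p = 2.49e-05), -0.17 ± 0.05 under mainstream smoke (adjusted p = 0.0123) and -0.15 ± 0.04 under sidestream smoke (adjusted p = 0.00715). The mainstream value did not pass without DIO-MS array 1 (-0.14, adjusted p = 0.0544) or without RW-MS arrays 2, 6 and 8 (-0.15, adjusted p = 0.0546). RW-SS array 7, the array with the high Gapdh difference, was the highest of all for Hk2, and without it the sidestream value was -0.10 (adjusted p = 0.0321). Smoke against air did not pass the threshold on either diet, with differences of -0.04 and -0.02 in RW mice and 0.05 and 0.08 in DIO mice. The sidestream interaction was 0.10 with a 95% interval of -0.02 to 0.23 (adjusted p = 0.196), and without RW-SS array 7 it was 0.15 (adjusted p = 0.0249).

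Hk1, the hexokinase of most other tissues and of the fetal heart, was highest in RW mice in air and lower in each of the other 5 groups. The lowest, median and highest values in RW-SC were 9.78, 9.89 and 9.96. They were 9.50, 9.65 and 9.68 in RW-MS, 9.51, 9.68 and 9.73 in RW-SS, 9.57, 9.66 and 9.71 in DIO-SC, 9.50, 9.56 and 9.66 in DIO-MS, and 9.48, 9.60 and 9.71 in DIO-SS. The lowest RW-SC array thus lay above every array of the other 5 groups. Among those 5 groups neighbours in the order of means were 0.03 or less apart, below the residual SD of 0.07. Hk1 fell by 0.26 log2 units with mainstream smoke (SE 0.03, 0.837 times, adjusted p = 2.18e-06) and by 0.23 with sidestream smoke (SE 0.04, 0.850 times, adjusted p = 4.43e-06) in RW mice, and it was lower at -0.23 ± 0.03 with the diet in air (adjusted p = 3.42e-06). These 3 comparisons share the RW-SC arrays. In DIO mice the smoke differences were -0.08 ± 0.04 (mainstream, adjusted p = 0.236) and -0.06 ± 0.03 (sidestream, adjusted p = 0.204). After a further quantile normalization the sidestream value was -0.10 and passed (adjusted p = 0.0498). Between diets under smoke they were -0.05 for both smokes (95% intervals from -0.13 to 0.02), and that under sidestream smoke became -0.11 and passed after the quantile normalization (adjusted p = 0.0291).

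The Hk1 sidestream effect differed between diets by 0.18 ± 0.05 log2 units (interaction, 95% interval 0.08 to 0.28, adjusted p = 0.00743). It was one of 3 of 9 genes past the threshold for that interaction, where 28.4% of all genes passed (2 of 9 higher beside 18.3%, 1 of 9 lower beside 10.1%). A further quantile normalization of the arrays ended that call (0.09, adjusted p = 0.236), and it left 2 of the 3 genes, Pfkp higher and Pfkfb2 lower, beside 623 of 9295 genes higher and 964 lower. The red cell mean as a covariate also ended the Hk1 call (0.11, adjusted p = 0.180), and 758 of all 9295 genes then passed, from 2641. RW-SS array 4 had both the highest red cell mean, 7.63, and the lowest Hk1 of its group, and without it no Hk1 call was lost. For mainstream smoke the Hk1 interaction was likewise 0.18 ± 0.05, but 0 of the 9 genes passed there (Hk1 adjusted p = 0.145), and 0.226% of all genes did. At an unadjusted p below 0.05, 1 of the 9 genes passed the mainstream interaction by limma, beside 1057 of all 9295 genes, a similar share. A second Hk1 probe set, 1420901_a_at, fell with both smokes in RW mice (-0.25 ± 0.07, adjusted p = 0.0293, and -0.44 ± 0.07, adjusted p = 1.95e-05) and with the diet in air (-0.28 ± 0.07, adjusted p = 0.00537). Its sidestream interaction was 0.49 ± 0.10 (adjusted p = 8.44e-04). It differed from the main probe set in DIO-SS against RW-SS, where it was higher by 0.21 ± 0.07 (adjusted p = 0.0262). A further Hk1 probe set that matches 6 annotated genes was not used.

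Of the phosphofructokinase genes, which encode the muscle (Pfkm), platelet (Pfkp) and liver (Pfkl) subunits, Pfkp was lower in smoke-exposed RW mice. Its lowest, median and highest values were 8.23, 8.31 and 8.53 in RW-SC, 7.95, 8.09 and 8.18 in RW-MS, and 7.70, 7.99 and 8.12 in RW-SS, so neither smoke group overlapped with air. DIO arrays gave 8.13, 8.28 and 8.47 in SC, 8.04, 8.15 and 8.48 in MS, and 8.22, 8.27 and 8.41 in SS. Pfkp fell by 0.24 log2 units with mainstream smoke (SE 0.06, 0.849 times, adjusted p = 0.00487) and by 0.34 with sidestream smoke (SE 0.06, 0.791 times, adjusted p = 2.26e-05) in RW mice. In DIO mice the differences were -0.10 ± 0.06 (adjusted p = 0.364) and 0.01 ± 0.06 (adjusted p = 0.924). DIO-SS exceeded RW-SS by 0.32 ± 0.06 (adjusted p = 4.87e-05) with no overlap, and the sidestream interaction was 0.35 ± 0.08 (adjusted p = 0.00158). The diet difference in air was -0.03 ± 0.06 (adjusted p = 0.746).

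Fibroblast markers were higher in DIO-SS than RW-SS for 5 of 7 genes tested and endothelial markers for 5 of 9, beside 19.7% of all genes. Over the 45 arrays Pfkp was most alike to Col4a2, a basement membrane collagen. With the fibroblast mean as a covariate the Pfkp sidestream interaction was 0.27 (adjusted p = 0.0144), with the endothelial mean 0.32 (adjusted p = 0.0183) and with the red cell mean 0.25 (adjusted p = 0.0693). All-gene calls for this interaction went from 2641 to 2004, 890 and 758 of 9295 with these covariates. The part of these cells in the Pfkp result was not tested beyond these values. The mainstream fall of Pfkp in RW mice did not pass without RW-MS arrays 2, 6 and 8 (-0.20, adjusted p = 0.0585) or with the red cell mean (-0.18, adjusted p = 0.101). Calls among all 9295 genes there also fell, from 638 to 380 and 255. The dimmer Pfkp probe set, 1430634_a_at, showed none of these changes past the threshold: its values were -0.07 and -0.01 for the smokes in RW mice (adjusted p = 0.728 and 0.924) and -0.02 for the sidestream interaction (adjusted p = 0.931).

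Pfkl was higher in DIO than RW mice under sidestream smoke. Its lowest, median and highest values were 8.02, 8.25 and 8.46 in RW-SC, 7.92, 8.13 and 8.46 in RW-MS, and 7.89, 8.01 and 8.57 in RW-SS, against 8.21, 8.44 and 8.70 in DIO-SC, 8.13, 8.36 and 8.46 in DIO-MS, and 8.33, 8.44 and 8.59 in DIO-SS. RW-SS array 5, at 8.57, overlapped with the DIO-SS arrays. Sidestream smoke in RW mice gave -0.16 ± 0.08 (adjusted p = 0.127) and the sidestream interaction 0.20 ± 0.11 (adjusted p = 0.167), and without that array these were -0.24 (adjusted p = 0.00963) and 0.28 (adjusted p = 0.0265), both past the threshold. DIO-SS exceeded RW-SS by 0.38 ± 0.08 log2 units (1.30 times, adjusted p = 3.08e-04), and the second probe set, 1450269_a_at, by 0.18 ± 0.06 (adjusted p = 0.0119). In air the diet difference was 0.18 ± 0.08 (adjusted p = 0.0815), and under mainstream smoke 0.19 ± 0.08 (adjusted p = 0.125). Pfkm, the main subunit of striated muscle, did not pass the threshold in any of the 11 comparisons. Its group means spanned 11.85 to 11.95, and its single arrays 11.57 to 12.14. Between phosphofructokinase genes levels are not compared, because each is read by its own probe set.

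**Figure D3:**
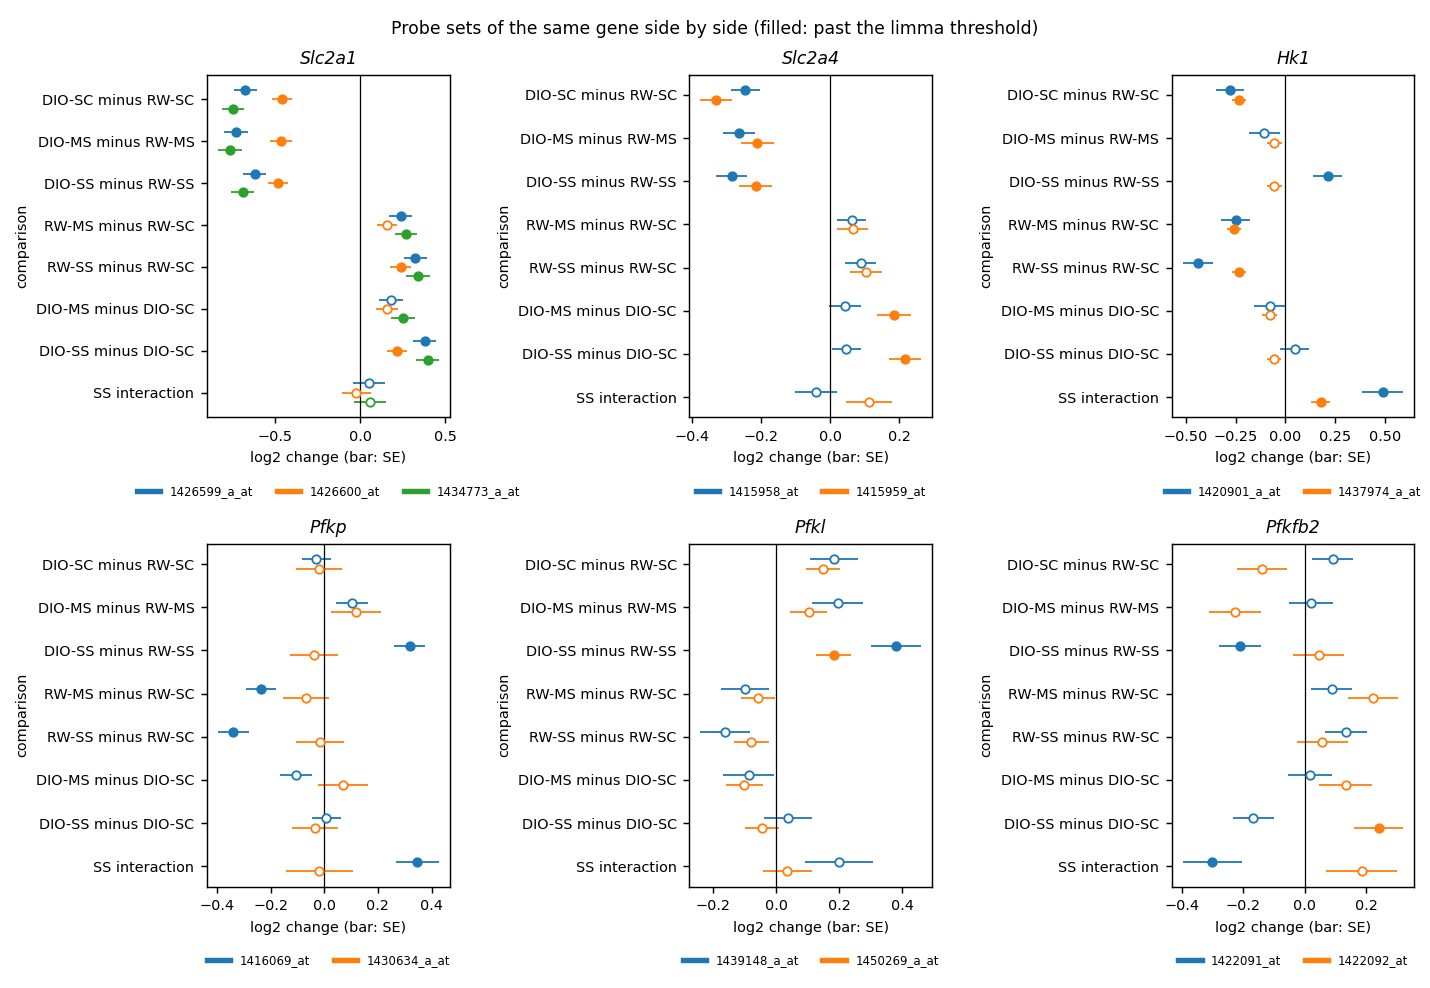
Log2 change (horizontal axis, with its SE) of each tested probe set of the 6 genes with more than 1, by comparison; filled points passed the limma threshold over 15295 probe sets. The 3 probe sets of Slc2a1 lie below 0 for the diet in air (-0.75, -0.67 and -0.46), while those of Pfkp differ in RW-SS against RW-SC (-0.34 and -0.01) and those of Pfkfb2 take opposite sides in DIO-SS against DIO-SC (-0.17 and 0.24).

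Pfkfb2 encodes a bifunctional enzyme that, in heart, makes the phosphofructokinase activator fructose 2,6-bisphosphate. Its probe set was dim, with values of 5.62 to 6.21. DIO-SS arrays gave a lowest, median and highest value of 5.62, 5.77 and 5.91, against 5.75, 5.95 and 6.06 in DIO-SC and 5.74, 6.01 and 6.12 in RW-SS. It fell by 0.17 log2 units in DIO-SS against DIO-SC (SE 0.07, adjusted p = 0.0498), which was lost on leaving out any of 10 of the 16 arrays. DIO-SS differed from RW-SS by -0.21 ± 0.07 (adjusted p = 0.0174) and the sidestream interaction was -0.30 ± 0.10 (adjusted p = 0.0181). These 2 calls were lost with the endothelial mean (-0.12, adjusted p = 0.248, and -0.18, adjusted p = 0.229), the fibroblast mean (adjusted p = 0.126 and 0.0651) or the red cell mean (adjusted p = 0.147 and 0.0974) as a covariate. Calls among all 9295 genes also fell with these covariates, from 3030 to 1898, 2213 and 1073 for DIO-SS against RW-SS. For the sidestream interaction they fell from 2641 to 890, 2004 and 758. A second Pfkfb2 probe set, 1422092_at, rose in DIO-SS against DIO-SC by 0.24 ± 0.08 (adjusted p = 0.0206) and gave 0.18 ± 0.11 for the interaction (adjusted p = 0.229). The direction of Pfkfb2 under sidestream smoke therefore depends on the probe set, and a further probe set was below the filter.

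Ldha, the lactate dehydrogenase subunit that favours lactate formation, did not pass the threshold in any of the 11 comparisons. Its group means spanned 12.04 to 12.10, and the 95% interval of the diet difference in air was -0.09 to 0.03 log2 units. The residual SD of Ldha was 0.06 log2 units, the smallest of the 9 genes. RW-SS and RW-MS did not differ past the threshold in any of the 9 genes (limma, 5.82% of all genes did so), and 0 of 9 were without overlap (0.420%). At an unadjusted p below 0.05, 0 of the 9 passed there, beside 2095 of all 9295 genes. DIO-SS and DIO-MS likewise gave 0 of 9 (2.55% of all genes) and 0 of 9 without overlap (1.20%). For this pair 2 of 9 had an unadjusted p below 0.05, beside 2067 of all 9295 genes, a similar share: Slc2a1, 0.14 ± 0.07 (adjusted p = 0.222), and Pfkfb2, -0.19 ± 0.07 (adjusted p = 0.127). With array weights both passed (adjusted p = 0.0375 and 0.00772), as did 1964 of 9295 genes, a share near that of the 9 genes.

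Over the 45 arrays, which share group and diet, Slc2a1, Slc2a4 and Hk2 varied together: Pearson's r was 0.87 between Slc2a1 and Slc2a4, 0.78 between Slc2a1 and Hk2, and 0.87 between Slc2a4 and Hk2. After group means were removed these values were 0.37, 0.43 and 0.71, so that Slc2a4 and Hk2 also varied together between arrays of one group. Within groups Pfkm gave 0.61 with Slc2a4 and 0.58 with Hk2. RW-SS array 7 was the highest of its group for both Slc2a4 and Hk2. RW-MS array 7 and DIO-MS array 1 were the lowest of theirs for both. The part of these arrays in the within-group values was not tested. Hk1 and Slc2a1 gave 0.18, and -0.13 within groups. Among all tested genes, those most alike to Slc2a1 were Dcxr (r = 0.92), Kyat3 (0.92) and Bckdhb (0.91), with 0.28 to 0.47 within groups. For Slc2a4 they were Prkab1 (0.91), Acadsb (0.90) and Cpeb3 (0.88), and for Hk2 Reep5 (0.88), Tnnt1 (0.87) and Slc2a4 itself. Hk1 was most alike to Tuba8 (0.88), Ckap4 (0.79) and Prkar1a (0.78), and Pfkp to Col4a2 (0.87, within groups 0.72), Mrs2 (0.82) and Ppp1r14b (0.79). Pfkm was nearest to Sema4d (0.85), Ckm (0.84) and Ogdh (0.83), with 0.85 to 0.87 within groups, and Pfkl to Crat (0.82), Clpb (0.82) and Ube2d1 (0.79). Pfkfb2 was nearest to Cysrt1 (0.83), Nfkb2 (0.82) and Zg16 (0.81), and Ldha to Pecr (0.64), Pccb (0.63) and Ilk (0.62).

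Other genes of glucose handling were taken from 7 lists with 108 genes, of which 82 were tested. On the high-fat diet in air 24 of the 82 (29.3%) passed the threshold, 19 lower and 5 higher. Of all genes 20.3% passed, 13.3% lower and 6.92% higher. After further quantile normalization the split of the 82 was 16 lower and 6 higher, beside 902 lower and 773 higher of 9295 genes. In glycolysis 2 of 13 were lower, near the 13.3% of all genes, and 0 higher. These were Gapdh, at -0.10 ± 0.02 log2 units (adjusted p = 0.00260), and Eno3, the muscle enolase, at -0.17 ± 0.03 (adjusted p = 3.87e-04). Both were without overlap, as were 4.05% of all genes. Of 4 carriers of lactate and pyruvate, Slc16a7, a monocarboxylate transporter, was lower at -0.55 ± 0.12 (adjusted p = 0.00111). In insulin signalling and Slc2a4 traffic 5 of 20 were lower and 1 higher. Akt1 kinase was lower at -0.35 ± 0.05 (adjusted p = 5.65e-07), its relative Akt2 at -0.19 ± 0.04 (adjusted p = 2.39e-04) and the receptor substrate Irs1 at -0.32 ± 0.08 (adjusted p = 0.00298), while Pik3r1, the regulatory subunit of phosphoinositide 3-kinase, was higher by 0.37 ± 0.09 (adjusted p = 0.00271). Glycogen genes had 2 of 18 lower, also near the share of all genes, and 2 higher. The branching enzyme Gbe1 was lower at -0.20 ± 0.05 (adjusted p = 0.00350) and the liver phosphorylase Pygl at -1.30 ± 0.40 (adjusted p = 0.0162). Stbd1 was higher at 0.38 ± 0.11 (adjusted p = 0.0124) and Ppp1r3a at 0.20 ± 0.06 (adjusted p = 0.0129). Pentose phosphate genes had 4 of 7 lower, among them transketolase Tkt (-1.28 ± 0.37, adjusted p = 0.0102) and Pgd (-0.45 ± 0.13, adjusted p = 0.00906).

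Tkt and Pygl ranged widely between RW-SC arrays, from 9.09 to 11.75 and from 5.26 to 8.49, as did the white fat marker mean (5.86 to 9.70). As a covariate the mean of the 4 white fat genes with a probe set was used, an alternative chosen after seeing the data. With it the diet differences of Tkt and Pygl were -0.55 (adjusted p = 0.00379) and -0.52 (adjusted p = 0.0209), and that of Pgd was -0.24 (adjusted p = 0.0395).

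Among 18 tested regulators of glucose genes, 5 were lower and 2 higher with the diet in air, beside 13.3% and 6.92% of all genes. Hif1a, the oxygen-regulated subunit of the hypoxia-inducible factor, was lower at -0.22 ± 0.05 (adjusted p = 6.60e-04), and Egln3, a prolyl hydroxylase that marks this factor for breakdown and is itself induced by it, was higher by 0.43 ± 0.10 (adjusted p = 0.00118). Hif1a had a lowest, median and highest value of 8.93, 9.02 and 9.13 in RW-SC and of 8.67, 8.80 and 8.90 in DIO-SC, without overlap. In DIO-SS arrays it was 9.03, 9.11 and 9.34, above every DIO-SC array. Hif1a rose by 0.32 ± 0.05 there (adjusted p = 2.44e-06) and by 0.20 ± 0.05 with mainstream smoke in DIO mice (adjusted p = 0.00957), and its sidestream interaction was 0.23 ± 0.07 (adjusted p = 0.00731). Egln3 fell with smoke in RW mice by 0.37 log2 units (mainstream, SE 0.10, adjusted p = 0.0147) and by 0.40 (sidestream, SE 0.10, adjusted p = 0.00316). DIO arrays exceeded RW arrays in Egln3 without overlap under both smokes, by 0.78 ± 0.10 (adjusted p = 9.26e-07) and 0.80 ± 0.10 (adjusted p = 8.29e-08). Mlxipl (ChREBP), a transcription factor that responds to glucose metabolites, was lower at -0.48 ± 0.07 with the diet in air (adjusted p = 8.82e-06) and at -0.43 ± 0.08 under mainstream smoke (adjusted p = 2.17e-04).

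Under smoke the diet contrast had Txnip, an inhibitor of glucose uptake that is induced by glucose, among its larger differences. Txnip was higher in DIO mice by 0.94 ± 0.18 log2 units under mainstream smoke (adjusted p = 2.66e-04) and by 1.14 ± 0.17 under sidestream smoke (adjusted p = 2.42e-06), with a sidestream interaction of 0.73 ± 0.24 (adjusted p = 0.0197). Its RW-SS arrays ranged from 9.83 to 11.94, more widely than those of the other groups. Akt1 was lower in DIO than RW mice under both smokes too (-0.35 ± 0.05 and -0.31 ± 0.05, adjusted p = 4.44e-06 and 6.50e-06), as was Irs1 (-0.27 ± 0.08 and -0.35 ± 0.08, adjusted p = 0.0318 and 9.53e-04). In all, 15 of the 82 genes passed between DIO-MS and RW-MS, 10 lower and 5 higher (18.3% beside 10.6% of all genes), and 29 between DIO-SS and RW-SS, 13 lower and 16 higher (35.4% beside 32.6%). After further quantile normalization the latter split was 17 lower and 10 higher.

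**Figure D4:**
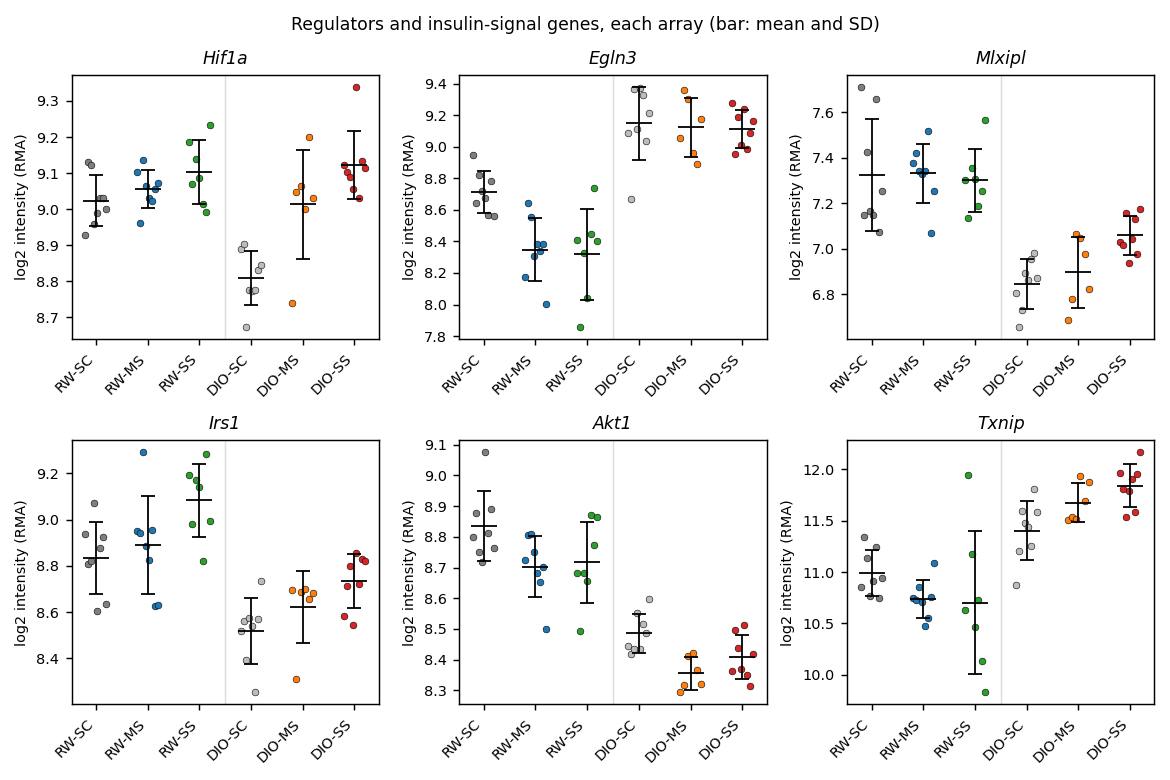
Each point is 1 array, on the log2 intensity scale, for 3 regulators (Hif1a, Egln3, Mlxipl) and 3 genes of insulin signalling and glucose uptake (Irs1, Akt1, Txnip); bars give the mean and 1 SD. The 6 genes were chosen for the plot after their values were seen. Hif1a is lowest in DIO-SC (8.67 to 8.90), and Egln3 in the DIO groups has means of 9.11 to 9.15 against 8.32 to 8.71 in the RW groups.

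Smoke against air changed 8 of the 82 genes in RW mice with mainstream smoke (3 higher, 5 lower, 9.76% beside 6.86% of all genes) and 18 with sidestream smoke (7 higher, 11 lower, a smaller share than the 24.6% of all genes). The latter split was 13 higher and 8 lower after further quantile normalization. Irs2 rose with both smokes in RW mice, by 0.38 ± 0.09 (adjusted p = 0.00592) and 0.27 ± 0.09 (adjusted p = 0.0306). Thra, a thyroid hormone receptor, fell with both (by 0.27, SE 0.05, adjusted p = 6.57e-04, and by 0.19, SE 0.05, adjusted p = 0.00852), and Akt2 fell with mainstream smoke by 0.19 (SE 0.04, adjusted p = 6.98e-04). Gsk3b, which inhibits glycogen synthase, fell by 0.38 with sidestream smoke without overlap (SE 0.05, adjusted p = 2.38e-07). Bpgm, which makes 2,3-bisphosphoglycerate and is most abundant in red cells, rose by 0.71 ± 0.16 with sidestream smoke (adjusted p = 0.00102). There 3 of 3 red cell markers tested also rose, beside 11.7% of all genes. The part of red cells in the Bpgm result was not tested. In DIO mice mainstream smoke changed 2 of the 82 (2.44% beside 4.55% of all genes: Hif1a higher, and Stbd1 lower at -0.59 ± 0.12, adjusted p = 0.00256), and sidestream smoke changed 17 (14 higher, 3 lower, 20.7% beside 31.8%). With further quantile normalization these were 1 higher and 2 lower, and 8 higher and 5 lower. Stxbp3, which takes part in docking Slc2a4 vesicles, rose with sidestream smoke by 0.25 ± 0.04 (adjusted p = 3.49e-05) and Pik3ca by 0.23 ± 0.05 (adjusted p = 3.89e-04). The sidestream interaction passed for 19 of the 82 (15 higher, 4 lower, 23.2% beside 28.4%), and after further quantile normalization for 5 higher and 6 lower.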

How the data were processed

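Total RNA (3 µg per heart) was labelled with biotin and hybridised to 1 Affymetrix array per mouse, and the labels call the arrays of a group biological replicates. The authors deposited 1 normalized log2 value per probe set and array. Their method was RMA, per the submitters' processing notes, with version, settings and scan batches not given in the sources used here. In the labels the growth protocol mentions an LPS study, while titles and treatment protocol name smoke, which was followed.

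For each gene the probe set annotated to that gene alone with the highest mean was kept. Genes below the lowest 25% by mean (4.90) were left out. Group means of all 45 arrays were fitted in limma 3.58.1 (R 4.3.3, lmFit and eBayes) for 11 comparisons, two-sided, with Benjamini-Hochberg adjustment within a comparison and a threshold of 0.05. An interaction is the effect in DIO minus that in RW mice. The procedure was tested on simulated data. The p printed for exact permutation tests of single genes are unadjusted. Figures used Python 3.11.15 and matplotlib 3.10.9.

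The 10 names and all lists were chosen with earlier results of these data known. Named were the 10 genes, from each list the 4 or fewer genes of smallest adjusted p past the threshold in a comparison, and the 3 genes most correlated with each. The alternatives were filters, probe set rules, eBayes settings, array weights, further quantile normalization, groups, replicate blocks, marker means as covariates, and arrays left out. A marker mean used as a covariate took in each listed gene with a probe set, also those below the filter, after centring each gene. It thus held 4 white fat and 6 red cell genes, of which 3 and 3 lay above the filter. Promoter windows are those of RefSeq on GRCm38.p6.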

Additional observations from a re-analysis of the deposited data

Results flagged for a closer look

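In 5 of 54 groups checked, 1 array lay apart from the other arrays of its group by the Dixon criterion, where chance gives about 1 in 20. Slc2a4 was 11.10 in RW-MS array 7, the next value being 11.31. Pfkm was 11.57 in RW-SC array 3, with the next at 11.90. Pfkp was 8.53 in RW-SC array 1, above the next at 8.36, and 7.70 in RW-SS array 4, below the next at 7.95. Ldha was 12.23 in RW-MS array 3, above the next at 12.12. The sidestream smoke effect differed between the diets, by the interaction in limma, for Hk1 (0.18), Pfkp (0.35) and Pfkfb2 (-0.30).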

How the results depend on the processing

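Values of these genes (with Tkt, Pygl and Pgd) were recomputed under other settings, without 1 array, or by the exact permutation test, giving 3520. In this tally alone the permutation p were adjusted, over the tests of these genes. Of the 3520 values 3451 kept their side of the threshold, 47 were lost and 20 passed newly. Values that passed neither before nor after count among the 3451 even where their direction changed. Direction turned in 2 values that passed before or after. They came from the mean of all probe sets, which gave Pfkfb2 0.151 in DIO-SS against DIO-SC (adjusted p = 0.0198, the other probe set being higher there) and 0.034 for the sidestream interaction (adjusted p = 0.755). The diet results of Slc2a1, Slc2a4, Hk1 and Hk2 in air and the Slc2a1 results for sidestream smoke were never lost. The same held, among others, for Slc2a1 with mainstream smoke and Hk1 with both smokes in RW mice. The count of genes past the threshold for mainstream smoke in DIO mice, 1, was 0 with the mean of all probe sets, with only the groups compared, with a replicate block and with a block by description number, the Slc2a1 call having an adjusted p of 0.0526, 0.0711, 0.0608 and 0.0575, and it ranged from 0 to 1 without 1 array. For sidestream smoke in DIO mice the count, 2, was 1 with no filter, a stricter filter, every probe set, trend and robust eBayes, either replicate block (Pfkfb2 adjusted p = 0.0661 and 0.0642), and the red cell, endothelial, fibroblast or white fat mean, and 1 to 2 without 1 array, and it was 3 with the mean of all probe sets (Slc2a4 at 0.13, adjusted p = 0.0107, and the higher Pfkfb2). For DIO-SS against DIO-MS the count, 0, was 2 with array weights and 0 to 1 without 1 array. For the sidestream interaction the count, 3, was 1 with the mean of all probe sets (2514 of all 9295 genes, from 2641) and 0 with the red cell mean (758 of all genes). It was 4 with array weights or without RW-SS 7, where Hk2 passed (0.13 and 0.15, adjusted p = 0.0353 and 0.0249), and without RW-SS 5, where Pfkl passed. Of all 9295 genes 3329 passed this interaction with array weights and 2775 without RW-SS 7, from 2641. With the mean of probe sets the calls of Pfkp were lost for RW-MS (-0.15, adjusted p = 0.0937), DIO-SS against RW-SS (0.14, adjusted p = 0.0521) and the interaction (0.17, adjusted p = 0.116). The causes were not tested, except that the stricter filter leaves Pfkfb2 untested. The 3 cell type means other than red cell were chosen after seeing the data. Arrays of the same replicate number did not deviate together (correlations of -0.56 to 0.47, median -0.01, over 106 pairs). Of 45 arrays, 4 fit best with their own number. These values gave no sign of pairing by replicate number. In DIO-MS and RW-SS the description numbers match arrays to other groups differently, and pairing by them was not tested in this way. Neither block changed a call of these genes other than those of Slc2a1 and Pfkfb2 in DIO mice just given. For DIO-SS against DIO-MS, calls among all 9295 genes went from 237 to 213 with the replicate block. With the block by description number they went to 90. Exact permutation tests of the 22 called differences between 2 groups gave unadjusted p of 1.55e-04 to 0.0112.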
